A study of Mus musculus with 4 samples.

Results

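The 9 genes followed here mark the identity of a macrophage and were read across WT and KO cells with and without lipid A. They are the transcription factor genes Spi1, Cebpa, Cebpb and Maf, the surface protein genes Adgre1, Itgam and Mertk, and Cd68 and Lyz2, which encode proteins of the lysosome and of secreted granules. The members were listed by name, and every probe set whose only gene symbol in the platform annotation was one of these names was used, which gave 15 probe sets for 9 genes among 34945 such probe sets for 18193 genes. Of the members, 7 have 1 probe set, Cebpb has 2 and Maf has 6, and each gene is described by its brightest probe set unless stated otherwise.

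Macrophage identity rests on a few transcription factors that act together. PU.1, the product of Spi1, opens macrophage enhancers, C/EBP proteins bind beside it, and Maf proteins hold mature macrophages out of the cell cycle and shape their anti-inflammatory genes. The surface and lysosomal proteins encoded by the other members serve adhesion, clearance of dead cells and digestion, and antibodies against several of them define macrophages in flow cytometry and tissue sections.

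The cells were peritoneal macrophages of C57BL6/J mice, elicited with thioglycollate and selected by adherence. WT mice were +/+:Setdb1 fl/fl and KO mice LysM Cre/+:Setdb1 fl/fl, so that both genotypes carried the floxed Setdb1 alleles and KO mice also carried Cre under the control of the lysozyme M gene. Cells of each genotype received vehicle or lipid A, the active part of lipopolysaccharide and a ligand of TLR4, for 4 h, at a dose given as 10 ng/ml in the description of the series and as 10 µg/ml in the sample labels. Each of the 4 conditions was measured on 1 Affymetrix Mouse 430 2.0 array. The age of the mice and the number behind each array are not given in the sources used here. Lysozyme M is the product of Lyz2, a member, and in the widely used LysM-Cre allele Cre is inserted into Lyz2 itself, so in KO the effects of the Cre allele and of Setdb1 loss on Lyz2 cannot be told apart.

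With 1 array per condition no difference has a replicate check, and neither a single comparison nor the difference of responses could be tested. An additive fit of genotype and lipid A, which would leave 1 residual degree of freedom, was not run. The values are linear signals, and on each array their mean without the highest and lowest 2% came to 500.004, while the median signal was between 65.1 and 84.2. A gene was called when its signals differed over 2-fold and the higher one reached the median of its array. Probe sets of one gene differed in their log2 difference with an SD between 0.39 and 0.46 in the 4 comparisons, a technical spread that leaves out mice and arrays. Setdb1 gave 589 and 521 in WT cells under vehicle and lipid A, and 346 and 386 in KO cells, by the only 1 of its 3 probe sets above the median on all arrays, and the files do not say where it lies relative to the floxed exons. Ptprc, which encodes the leukocyte protein CD45, was higher after lipid A by 1.26-fold in WT and 1.45-fold in KO. In bulk RNA, fewer macrophages and less RNA per macrophage cannot be told apart.

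All 9 members were well above the median signal on all 4 arrays, their brightest probe sets lying at or above percentile 78.1 of all probe sets of an array. Cd68, Lyz2 and Itgam each kept their 4 signals within 1.5-fold. The signals of Cebpb, Spi1, Maf and Mertk ranged over 1.58-fold, 1.59-fold, 1.74-fold and 1.95-fold. Cebpa was the member with the widest range, 7.31-fold, with low signals in both lipid A arrays, and Adgre1 followed with 2.73-fold, with a low signal in KO vehicle. Cebpa and Adgre1 were also the only members called in any of the 4 comparisons by their brightest probe set.

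**Figure D1:**
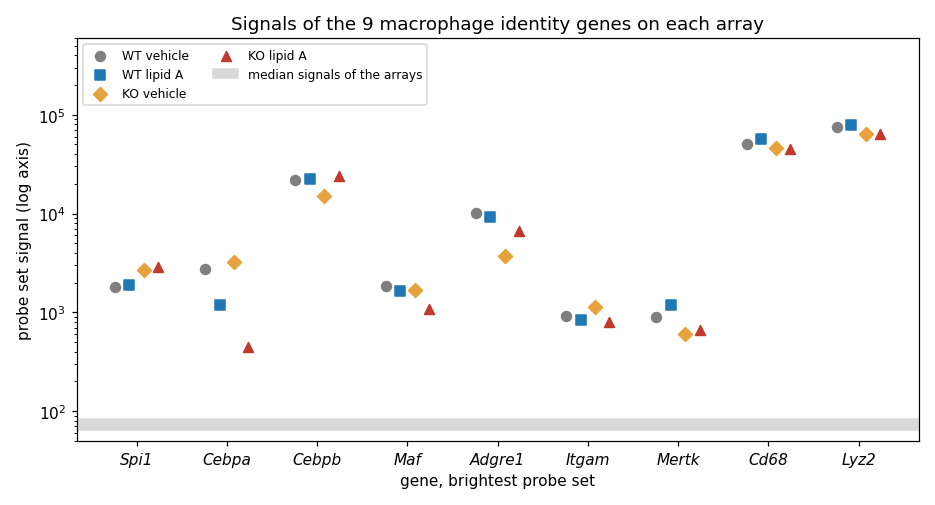
Probe set signal on a log axis for the 9 identity genes, 1 point per array and condition, with the median signals of the arrays, 65.1 to 84.2, as a grey band. Cebpa falls to 446 in KO lipid A and Adgre1 to 3726 in KO vehicle, while Cd68 and Lyz2 stay within 1.26-fold.

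As deposited, Spi1, which encodes the lineage-determining factor PU.1, differed more between genotypes than with lipid A. Its signal was 1798 and 1902 in WT cells under vehicle and lipid A, and 2672 and 2851 in KO cells. Both KO arrays were above both WT arrays, by 0.57 under vehicle and 0.58 under lipid A on the log2 scale, which is below the threshold of the call. Lipid A moved it by 0.08 on the log2 scale in WT and by 0.09 in KO. Which difference was larger depended on the scaling. After median centring of the arrays Spi1 differed by 0.20 between genotypes under vehicle, against 0.25 with lipid A in KO. Scaled to Ptprc, it differed by 0.41 between genotypes under lipid A, against -0.44 with lipid A in KO.

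Cebpa encodes C/EBPα, which commits progenitors to the granulocyte and monocyte lineages and restrains proliferation. It gave 2744 and 1175 in WT cells under vehicle and lipid A, and 3260.1 and 446 in KO cells. The vehicle arrays of the 2 genotypes were within 1.19-fold, both lipid A arrays were lower, and KO lipid A was the lowest of all. Cebpa fell 2.33-fold with lipid A in WT and 7.31-fold in KO, and was 2.64-fold lower in KO than in WT under lipid A. In WT 6.41% of the 12129 genes detected had a more negative difference with lipid A, and in KO 3.27% of 12293 genes did. The KO response was thus 1.65 below the WT response on the log2 scale, where probe sets of one gene differed in this measure with an SD of 0.50. Under vehicle the log2 difference between KO and WT was 0.25 as deposited and -0.12 after median centring of the arrays, so its direction was not settled.

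The sequence just upstream of Cebpa is shown because this gene carries the widest response. The 250 bases before its start lie at chr7:35119043-35119292 on the + strand in GRCm38.p6, from RefSeq, and the capitals mark a TATA box.
Cebpa: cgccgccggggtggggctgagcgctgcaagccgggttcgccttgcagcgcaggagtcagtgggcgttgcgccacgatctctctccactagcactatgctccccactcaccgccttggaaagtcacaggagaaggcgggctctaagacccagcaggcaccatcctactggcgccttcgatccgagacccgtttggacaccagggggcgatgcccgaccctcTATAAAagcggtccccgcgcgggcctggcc
The letters TATAAA, searched on both strands, begin 30 bases upstream of the start and occur in 12.4% of the 32851 promoter windows of the same length. The other motifs searched on both strands were GAGGAA as the core bound by PU.1, TTGCNNAA for C/EBP and TGANTCA for AP-1, and Cebpa had 0 matches to them in this window.

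Among 9047 genes at or above the median on all 4 arrays, those with a pattern nearest to that of Cebpa were Irf2bpl, Rasa3, which encodes a GTPase-activating protein for Ras, and Knop1. Likeness was the Euclidean distance of the 4 mean-centred log2 signals, and it was 0.16, 0.21 and 0.24 for these genes. Irf2bpl gave 1948 and 819 in WT cells under vehicle and lipid A, and 2470.2 and 288 in KO cells. This likeness rests on 4 points and describes these arrays only.

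Cebpb encodes C/EBPβ, the family member that drives inflammatory and emergency myeloid genes. Its brightest probe set gave 21777 and 22464 in WT cells under vehicle and lipid A, and 15106 and 23931 in KO cells. Only KO vehicle stood apart, below the other arrays, by 1.44-fold against WT vehicle and 1.58-fold against KO lipid A. The second probe set gave 3781 and 4565 in WT cells under vehicle and lipid A, and 2982 and 6908 in KO cells. It showed the same low KO vehicle signal, and by it the lipid A difference in KO, 2.32-fold, passed 2-fold. In WT neither probe set did, with 1.03-fold and 1.21-fold.

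Set against each other within an array, Cebpb and Cebpa changed in ratio with lipid A, and most of this change restates the fall of Cebpa. Cebpa fell 2.33-fold in WT and 7.31-fold in KO, beside Cebpb ratios of 1.03-fold and 1.58-fold by the brightest probe set. As a change and not as a level, the ratio of Cebpb to Cebpa signals rose 2.41-fold in WT and 11.6-fold in KO by the brightest probe sets, and 2.82-fold and 16.9-fold by the second probe set of Cebpb. Cebpd, which encodes C/EBPδ and is an early gene of inflammation, gave 582 and 1039 in WT cells under vehicle and lipid A, and 709 and 2506 in KO cells. It was called higher with lipid A in KO, at 3.53-fold, and in KO over WT under lipid A, at 2.41-fold, whereas its second probe set gave 1.40-fold and 1.10-fold. That probe set read 43.6, below the median, and 156 in WT against 123 and 172 in KO, so by it the larger lipid A difference was in WT, and the order of the genotypes rested on the probe set. Cebpg, a widely expressed relative, lay between 2041 and 2274 on all arrays.

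Maf encodes c-Maf, a factor of mature macrophages that supports Il10 expression. Its brightest probe set gave 1862 and 1659 in WT cells under vehicle and lipid A, and 1676 and 1069.6 in KO cells. KO lipid A was the lowest, 1.57-fold below KO vehicle and 1.55-fold below WT lipid A, and the other arrays lay close together. Of the 6 probe sets 4 reached the median on all arrays, and they did not run alike. In KO over WT under lipid A their log2 differences were -0.63, -0.29, -1.12 and 0.47 in order of brightness, so a call rested on the choice of probe set, the third giving 2.17-fold lower. The fifth probe set reached the median on 1 array, with vehicle signals of 60.3 in WT and 99.9 in KO against lipid A signals of 3.01 and 2.09, and the sixth was below it on all 4.

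The small Maf genes, whose products lack an activation domain and partner with Bach and Nrf2 proteins, behaved unlike Maf. Maff gave 285 and 1501 in WT cells under vehicle and lipid A, and 236 and 3734 in KO cells, a rise with lipid A of 5.26-fold in WT and 15.8-fold in KO. Mafk rose 3.06-fold in WT, and its ratio in KO was 1.67-fold, while the ratios of Mafg were 1.87-fold and 1.67-fold. Bach2, a repressor that pairs with small Maf proteins, fell with lipid A, 4.04-fold in WT and 4.55-fold in KO, and by the dimmest of its probe sets moved by 0.38 and -0.62 on the log2 scale.

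**Figure D2:**
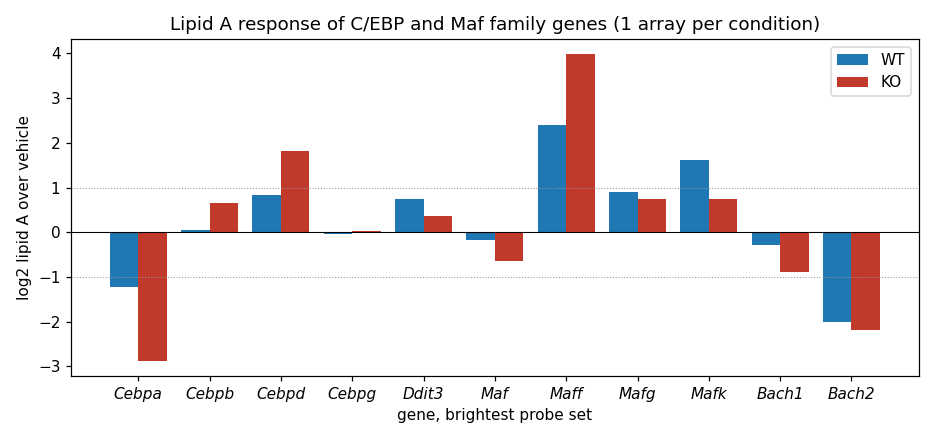
Log2 ratio of lipid A over vehicle signals in WT and KO for 11 genes of the C/EBP and Maf families and their partners, from 1 array per condition and hence without error bars, with dotted lines at 2-fold. Cebpa lies at -1.22 in WT and -2.87 in KO, and Maff at 2.40 and 3.98.

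Adgre1 encodes F4/80, the adhesion receptor by which mouse macrophages are most often recognised. It gave 10187 and 9216 in WT cells under vehicle and lipid A, and 3726 and 6633 in KO cells. Both KO arrays were below both WT arrays, and KO vehicle was the lowest. Adgre1 was 2.73-fold lower in KO than in WT under vehicle and 1.39-fold lower under lipid A, where it was not called. Under vehicle 4.07% of the 12002 genes detected had a more negative difference. Lipid A moved it by -0.14 on the log2 scale in WT and by 0.83 in KO, and the 2 responses differed by 0.98. Under vehicle the log2 difference lay between -1.82 and -1.42 over the other scalings and rules tried.

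Among 32 detected genes of the core macrophage signature, 3 were called lower in KO than in WT under vehicle and 1, the dim Cx3cr1, higher, where 6.17% of all genes detected were lower and 11.1% higher. Cybb, the membrane subunit of the phagocyte NADPH oxidase, gave 46571 and 60888 in WT cells under vehicle and lipid A, and 16422 and 64747 in KO cells. Like Adgre1 it was lowest in KO vehicle, 2.84-fold below WT, and by its further probe sets 5.66-fold and 4.09-fold. Abca1, a cholesterol exporter, was 3.26-fold lower in KO under vehicle and 2.96-fold lower under lipid A, and C1qb, a chain of complement C1q, 2.67-fold and 2.85-fold lower, or 2.22-fold and 1.94-fold by its second probe set and 1.56-fold and 2.33-fold by the dimmest. The second probe set of Abca1 gave 1.62-fold under lipid A, so that call rested on the probe set.

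Itgam encodes CD11b, the α chain of the integrin Mac-1. It gave 929 and 845 in WT cells under vehicle and lipid A, and 1127 and 794 in KO cells. Both lipid A arrays were below both vehicle arrays, by 1.10-fold in WT and 1.42-fold in KO, and the genotypes overlapped. Under vehicle the log2 difference between KO and WT was 0.28 as deposited and -0.09 after median centring of the arrays. Itgb2, which encodes the β chain CD18, lay between 42231 and 50466.

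Mertk encodes a receptor kinase through which macrophages bind and engulf apoptotic cells. It gave 888 and 1187 in WT cells under vehicle and lipid A, and 609.9 and 666 in KO cells. Both KO arrays were below both WT arrays, by 1.46-fold under vehicle and 1.78-fold under lipid A, neither of which passed the threshold. Of its relatives and ligands, the receptor gene Axl was higher with lipid A, from 93.2 to 390.1 in KO and, from a signal below the median, at least 4.78-fold in WT. The bridging ligand Gas6 gave 753 and 430.1 in WT cells under vehicle and lipid A, and 974 and 358 in KO cells, which was 2.72-fold lower with lipid A in KO. The other ligand, Pros1, was 2.15-fold higher in KO under vehicle.

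Cd68 encodes macrosialin, a glycoprotein of the lysosome membrane. Its signal was 50125 and 56802 in WT cells under vehicle and lipid A, and 45609 and 45401 in KO cells. Both KO arrays were below both WT arrays, by 1.10-fold under vehicle and 1.25-fold under lipid A. Its relatives Lamp1 and Lamp2, the main lysosome membrane proteins, were likewise within 1.25-fold between genotypes, and Lamp1 was above WT in both KO arrays while Lamp2 was below.

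Lyz2 encodes lysozyme M, which cleaves bacterial cell walls. It gave 75503 and 79311 in WT cells under vehicle and lipid A, and 64032 and 63122 in KO cells. As for Cd68, both KO arrays were below both WT arrays, here by 1.18-fold and 1.26-fold. For both genes these folds were below the SD between probe sets of one gene, 1.34-fold under vehicle and 1.33-fold under lipid A. The brightest probe sets assigned to its close paralog Lyz1 carry the suffix of probe sets that can bind several transcripts, and they gave 1.10-fold and 1.52-fold lower signals in KO for the first and 1.23-fold and 1.64-fold for the second, under vehicle and lipid A in turn. The third, without that suffix and far dimmer, went the other way, with 36.4 under vehicle and 167 under lipid A in WT against 127.4 and 285 in KO, the first of these below the median. How far the paralogs share signal cannot be told apart here.

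Itgam and Cd68 are shown as sequences because the windows of these genes hold motifs for factors that are themselves members. The 250 bases before each start come from RefSeq, GRCm38.p6, at chr7:128062390-128062639 on the + strand for Itgam and chr11:69666171-69666420 on the - strand for Cd68, and the capitals mark matches to GAGGAA, TTGCNNAA and TGANTCA on either strand.
Itgam: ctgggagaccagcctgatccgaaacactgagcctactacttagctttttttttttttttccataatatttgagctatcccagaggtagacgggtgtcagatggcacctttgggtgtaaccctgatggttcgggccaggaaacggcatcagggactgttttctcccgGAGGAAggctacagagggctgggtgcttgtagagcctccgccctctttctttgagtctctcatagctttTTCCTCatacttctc
Cd68: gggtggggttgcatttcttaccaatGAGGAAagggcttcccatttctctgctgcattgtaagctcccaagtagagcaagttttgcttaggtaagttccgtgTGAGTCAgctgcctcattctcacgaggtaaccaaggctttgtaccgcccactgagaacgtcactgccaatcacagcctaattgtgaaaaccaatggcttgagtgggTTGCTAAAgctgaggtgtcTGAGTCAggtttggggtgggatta
Itgam had 2 matches to GAGGAA, 84 and 15 bases upstream of the start, the nearer one on the opposite strand. Cd68 had 1 match to GAGGAA at 225 bases, 1 to TTGCNNAA at 43 bases and 2 to TGANTCA at 149 and 24 bases, none of which overlapped. In all windows of this length GAGGAA occurred in 23.3%, TTGCNNAA in 9.56% and TGANTCA in 6.75%. Sequences were at hand for 6 of the 9 members, and in those of Cebpb, Mertk and Lyz2 there were 0 matches to the 4 motifs. A match is a string of letters and was not tested as a binding site.

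With lipid A, 1 member of 9 was called in each genotype, Cebpa in both, and it was lower. In WT 8.94% of the 12129 genes detected were called lower and 11.8% higher, and among the 4611 genes at least as bright as the dimmest member, a comparison added after the values were seen, the shares were 2.00% and 5.90%. In KO 16.0% of 12293 genes were lower and 11.2% higher, or 7.03% and 7.83% of the bright genes. The median log2 difference of the members was 0.045 in WT and -0.0066 in KO, against -0.082 and -0.20 over all genes detected.

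Between genotypes 1 member of 9 was again called lower and 0 higher, Adgre1 under vehicle and Cebpa under lipid A. Under vehicle 6.17% of the 12002 genes detected were lower in KO and 11.1% higher, with 2.43% and 0.954% among the bright genes. Under lipid A 10.3% of 12335 genes were lower and 10.6% higher, with 2.69% and 1.73% among the bright genes. The members had medians of -0.15 under vehicle and -0.33 under lipid A. Over all genes detected the medians were 0.097 and -0.013, and among the bright genes 0.028 and -0.012. The members' medians moved with the scalings and rules tried. They lay between -0.52 and -0.13 under vehicle and between -0.50 and -0.29 under lipid A, and were not tested. Beside shares of up to 16.0% over all genes, 1 member of 9 is not a result about the members as a group, and the comparisons share arrays in pairs. Single probe sets over 2-fold lower in KO under lipid A were those of Cebpa and the third of Maf. Under vehicle it was that of Adgre1 alone, among the 13 probe sets of members that reached the median on all arrays. The share over all probe sets was not computed, so no count of probe sets is read as a result. At over 3-fold 0 members were called between genotypes.

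**Figure D3:**
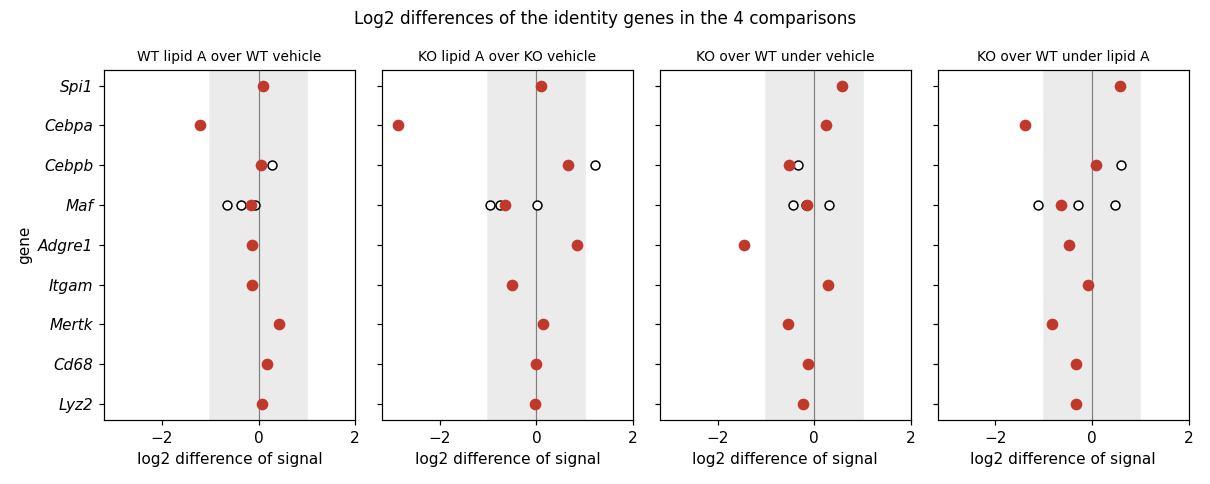
Log2 difference of signal in the 4 comparisons for the 9 identity genes, with the brightest probe set filled and further probe sets at or above the median on all arrays open, and differences under 2-fold shaded. Filled points outside the shading are Cebpa at -1.22, -2.87 and -1.40 and Adgre1 at -1.45, and among the open points Cebpb lies at 1.21 in KO lipid A over KO vehicle.

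**Figure D4:**
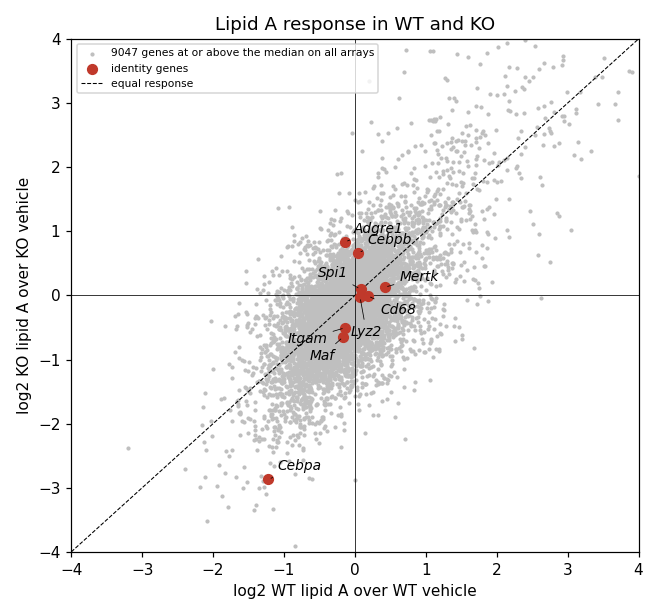
Log2 lipid A response in KO against that in WT for 9047 genes at or above the median on all arrays (grey, 49 of them outside the axes) and the 9 identity genes (red), with the line of equal response dashed. Cebpa lies below the line at -1.22 in WT and -2.87 in KO, and Adgre1 and Cebpb lie above it.

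The wider identity programme was described with 83 further genes in 4 lists, of which 76 have a probe set. With lipid A, 9 of 69 detected genes were called higher and 5 lower in WT, and 12 of 69 higher and 8 lower in KO, where the shares over all genes detected were 11.8% and 8.94% in WT and 11.2% and 16.0% in KO. Between genotypes the numbers were 4 higher and 3 lower of 68 under vehicle, and 6 higher and 5 lower of 71 under lipid A, beside 11.1% and 6.17%, and 10.6% and 10.3%, of all genes. No count here is read as a result about the lists, nor are those of the single lists given next. The medians of all 4 lists together were 0.06, -0.07, 0.18 and -0.005 in these comparisons. Those over all genes detected were -0.08, -0.20, 0.097 and -0.013.

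Among the 21 lineage transcription factors, Pparg, the lipid-sensing nuclear receptor, moved much as Cebpa did. It gave 1570 and 545 in WT cells under vehicle and lipid A, and 2085 and 279 in KO cells, or 2.88-fold and 7.48-fold lower with lipid A. The ETS gene Ets2 rose 5.99-fold in WT and 7.56-fold in KO after lipid A, and Tfec, a macrophage-restricted relative of Mitf, 3.45-fold and 5.76-fold. Irf8, a partner of PU.1 in the monocyte lineage, was not called in any comparison and lay between 1725 and 2822. Spib, a close relative of Spi1 that B cells and plasmacytoid dendritic cells use, was 5.44-fold higher in KO under vehicle and 3.82-fold under lipid A, in the arrays where B cell markers were also higher. With lipid A 4 of 18 detected factors of this list were called higher and 2 lower in WT, and 2 higher and 4 lower in KO, and between genotypes 2 were higher and 0 lower under vehicle, and 2 of 19 higher and 2 lower under lipid A.

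Of the 8 measured relatives in the C/EBP and Maf families, 2 were called higher and 1 lower with lipid A in either genotype, 0 differed between genotypes under vehicle, and 2 were higher in KO under lipid A. Of the surface and lysosome relatives, 1 of 10 was higher and 1 lower with lipid A in WT, and 3 of 11 higher and 2 lower in KO, while KO over WT had 1 higher and 0 lower under either treatment. In the core signature 2 of 33 were higher and 1 lower with lipid A in WT, 5 of 32 higher and 1 lower in KO, and between genotypes 1 was higher and 3 lower under both vehicle and lipid A.

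In the core macrophage signature Csf1r, the receptor that keeps macrophages alive, gave 39295 and 40196 in WT cells under vehicle and lipid A, and 34472 and 25476 in KO cells, the lowest again being KO lipid A. By its second probe set it was 2.25-fold lower in KO than in WT under lipid A, against 1.58-fold by the brightest. Cd14, the coreceptor that hands lipopolysaccharide to TLR4, had a lipid A ratio of 1.82-fold in WT and rose 3.48-fold in KO. Adgre5, the adhesion receptor CD97 and a relative of Adgre1, fell with lipid A by 2.18-fold in WT and 3.44-fold in KO.

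Marker genes of other cell types also differed in signal. The summed signal of 11 genes of resident large peritoneal macrophages was 3930.1 and 3764 in WT against 14788 and 13360.4 in KO, each under vehicle and lipid A, while Timd4, Alox15 and Garnl3 were below the median on all arrays. Fcna gave the largest part of this sum, 1917 and 1817 in WT against 8392 and 7790 in KO. Under vehicle 6 of the 8 detected genes were called higher in KO and 0 lower, beside 11.1% and 6.17% of all genes. That of 9 B cell genes was 679.9 and 656 in WT against 6039 and 6081 in KO, 4 and 3 of them reaching the median in WT and 8 and 7 in KO. That of 10 neutrophil genes was 6409 and 5209 in WT against 2467 and 2804 in KO, with S100a9 and Cxcr2 below the median on all arrays and 5 genes above it on each. The neutrophil sum was carried by Mmp8, a granule collagenase, at 3599 and 2346 in WT against 399 and 217 in KO, and by S100a8, a subunit of calprotectin, at 1727 and 1721 against 569 and 676. Other neutrophil genes went the other way, since Csf3r, the G-CSF receptor, exceeded WT 2.16-fold in KO after lipid A, and under vehicle 2 genes, the dim Ltf and Elane, were called higher and 4 lower. Members are not confined to elicited macrophages. Neutrophils and monocytes share Itgam, Lyz2, Spi1, Cebpa and Cebpb with them, B cells share Spi1, and resident macrophages share Adgre1 among other members.

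The remaining lists were lower in signal or rested on few genes. The 5 monocyte genes summed to 1485, 3368, 6351 and 8902 in the order of conditions used above, with Fn1, which macrophages also express, giving 1035 in WT vehicle and 5636 in KO vehicle. The T and NK cell sum was carried by Il7r, at 23265 to 35961, and the other 7 genes summed to 177, 329, 603 and 727. With Il7r counted, 1 and 2 of the 8 genes reached the median in WT under vehicle and lipid A, and 3 and 7 in KO. The WT sums of the other 7 thus came mostly from signals below the median. Dendritic cell genes summed to between 433 and 987 with Flt3 and Xcr1 below the median on all arrays, mast cell and eosinophil genes to between 206 and 603 with 7 of 9 below the median throughout, and mesothelium and fibroblast genes to between 824 and 1898. The last sum was lower in KO through fibroblast genes such as Dcn. The mesothelium markers did not run alike. Msln, which encodes mesothelin, was dim, at least 1.83-fold higher in KO under vehicle and not called under lipid A. Lrrn4 was 1.12-fold lower in KO under vehicle and 1.31-fold lower under lipid A, and Upk3b and Krt19 were below the median on all arrays. The part of any of these cells in the members' differences was not tested.

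**Figure D5:**
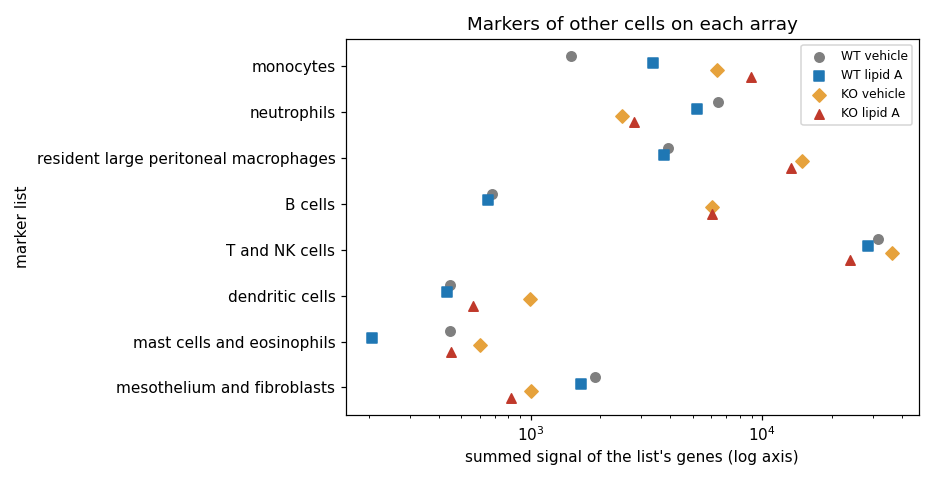
Summed signal on a log axis of the genes with a probe set in each of 8 marker lists of other cells, 1 point for each of the 4 arrays. Genes of resident large peritoneal macrophages and B cells sum higher in both KO arrays, and the neutrophil sum, carried by Mmp8 and S100a8, is lower.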

How the data were processed

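The authors deposited the probe set intensity on a linear scale for 4 arrays, and the sources used here do not name the software that made them. Of 45101 probe sets 64 controls were left out, and gene names came from the platform annotation supplied for this work. Signals were log2-transformed without further scaling, and each of 18193 genes was read from its brightest probe set by mean on that scale. The study's methods required over 2-fold or over 3-fold with calls of present and increased, the stricter one between genotypes. Here 2-fold was used throughout, with 3-fold as an alternative, the array median took the place of the present call, and no increased call was used. The members and lists were chosen with earlier results of these data known. Text names all members, list genes of large difference, partners and paralogs of members and the 3 genes nearest to the member of widest range. Irf8, Csf1r, Cebpg, Mafg, Lamp1 and Lamp2 were added after their values were seen. Precision is limited by the number of arrays, and no p-value was computed. Alternatives were other scalings, probe set rules, filters, a floor and thresholds. Python 3.11.15, numpy 2.4.6, pandas 2.3.3 and matplotlib 3.10.9 were used.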

Additional observations from a re-analysis of the deposited data

Results flagged for a closer look

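As deposited, for 3 members an effect had opposite signs in 2 groups and the difference exceeded the technical SD of 0.50 on the log2 scale. Adgre1 had a lipid A response of -0.14 in WT and 0.83 in KO. Cebpa had a KO over WT difference of 0.25 under vehicle and -1.40 under lipid A, the first of which turned to -0.12 after median centring of the arrays. Cebpb had -0.53 under vehicle and 0.09 under lipid A, and the second turned to -0.08 with the arrays scaled to Ptprc and to -0.03 after quantile normalization. By quantile normalization the 2 Cebpb values also lay only 0.493 apart, below the technical SD of 0.497. None of these differences was tested, since each condition has 1 array.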

How the results depend on the processing

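The 10 alternatives gave 350 values besides those reported, of which 330 kept within the technical spread or within 1.5 times the count. Many of these could not move. All members were above the median on all arrays, so the floor and the filters left their values unchanged. The median over probe sets could not change the 7 members with 1 probe set, and most scalings shifted all members of a comparison alike. A change of sign was looked for only in values over 2-fold, which lay far from 0, and 0 changed. Neither count is read as stability. Scaled to Ptprc, members lower with lipid A in KO numbered 3 with a median of -0.54, the added genes being Maf and Itgam, and members lower in KO under lipid A numbered 2, with Mertk added; Ptprc itself differed with lipid A. With arrays centred on genes detected on all 4 arrays, 1 member, Adgre1, passed 2-fold upward in KO after lipid A. At over 3-fold 0 members were lower with lipid A in WT, 0 in KO over WT under vehicle and 0 under lipid A. At over 1.5-fold 2 were higher and 2 lower with lipid A in KO, and 3 were lower in KO under lipid A. By the median over probe sets the KO minus WT response of Maf was 0.06 against -0.48. No paired analysis was possible because each condition has 1 array, which also means that no replicate could be left out. Signals near the median carry little information about a fold.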

Other observations

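Klf4, which encodes a factor that promotes monocyte differentiation, had lipid A responses of opposite sign in the 2 genotypes, chosen here after its values were seen. It gave 1788 and 4084 in WT cells under vehicle and lipid A, and 2328 and 1274 in KO cells, a lipid A difference of 2.28-fold upward in WT and 1.83-fold downward in KO. Its second probe set gave 800.5, 1052 and 1065 in the first 3 of these arrays and 401 in KO lipid A, the lowest by both probe sets. Irf4, a partner of PU.1 in B cells and in some macrophages, was below the median in both WT arrays and was at least 3.07-fold higher in KO under vehicle and 2.87-fold higher under lipid A, where it gave 215. It moved with the B cell markers and with Spib, and their part in it was not tested.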
